A study of Homo sapiens with 9 samples.

Results

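The S100 genes encode small calcium-binding proteins, and 10 of them were followed here by name among the 58735 genes of the deposited table. The members were S100A2, S100A3, S100A4, S100A6, S100A8, S100A9, S100A10, S100A11, S100A13 and S100A16. They were chosen by name, with the differences in their counts between the groups below already known, and the list states no threshold on a measured value. An adjusted p given for a member therefore describes its place in a fit over all genes and does not allow for that choice. Another 11 genes of the family were followed as a second list.

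RNA was sequenced from U87 cells, an established human glioblastoma line, in 3 groups of 3 libraries that each stably expressed 1 construct. The groups were cells with mutant isocitrate dehydrogenase 1 that also had a serine in place of a cysteine (labelled IDH1mt C269S, here C269S), cells with the R132H mutant alone (IDH1mt), and cells with the PCDH vector as control. All were kept in DMEM with serum, and the study asked how self-palmitoylation of the mutant enzyme bears on gene expression. No group with introduced unmutated IDH1 was analysed here, and the labels give neither the origin of the replicate libraries (separate cultures or not) nor the number of selected lines per construct. The spread behind each p-value is thus only that among these libraries and may be technical. An effect of a construct and a difference between selected lines cannot be told apart.

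S100 proteins bind calcium through a pair of EF-hand motifs and mostly work as dimers. Inside the cell they bind and adjust other proteins, among them annexins and cytoskeletal motors. Several are also released, and the secreted forms act on receptors such as RAGE (gene AGER) and TLR4 in inflammation. S100A8 and S100A9 pair as calprotectin, which is best known from neutrophils and monocytes. In brain, S100B is the family member used as an astrocyte marker.

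All 10 members lie on chromosome 1 within 1648 kb (151982915 to 153631360, GRCh38). S100A10 and S100A11 stand apart at one end, 1310 kb from S100A9, and the other 8 are packed into the 274 kb from the start of S100A9 to the end of S100A13. S100A9 (153357854 to 153361027) is the only member on the plus strand. S100A8 (153390032 to 153391188) lies 29 kb beyond it on the minus strand, and S100A3 (153547329 to 153549372) lies inside the span of S100A4 (153543613 to 153550136) without sharing an exon with it.

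The windows around the start sites of the 4 members that were higher in IDH1mt than in PCDH are shown because these transcripts were higher together in that comparison. Each runs from 250 bases before to 50 bases after a start site, 5′ to 3′ on the strand of the gene, and comes from RefSeq on GRCh38.p14. They lie at chr1:153357604-153357903 (S100A9, plus), chr1:153391024-153391323 (S100A8, minus), chr1:153549209-153549508 (S100A3, minus) and chr1:153565795-153566094 (S100A2, minus). Where RefSeq lists several start sites, the one with the nearest TATAAA upstream is shown, or else the first listed. Capitals mark TATAAA, the core of the TATA box, or TGANTCA, the core bound by AP-1 factors.
S100A9: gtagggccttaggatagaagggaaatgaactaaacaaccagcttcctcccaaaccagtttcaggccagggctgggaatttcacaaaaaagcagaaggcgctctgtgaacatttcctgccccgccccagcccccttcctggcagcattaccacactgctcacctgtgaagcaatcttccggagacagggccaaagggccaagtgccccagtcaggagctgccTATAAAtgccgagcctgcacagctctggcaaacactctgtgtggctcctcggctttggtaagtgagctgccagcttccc
S100A8: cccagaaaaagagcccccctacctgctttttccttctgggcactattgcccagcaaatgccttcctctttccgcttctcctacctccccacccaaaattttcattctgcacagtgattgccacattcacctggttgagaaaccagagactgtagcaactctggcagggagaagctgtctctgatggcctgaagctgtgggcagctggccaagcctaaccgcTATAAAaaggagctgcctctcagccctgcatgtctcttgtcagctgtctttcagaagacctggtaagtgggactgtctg
S100A3: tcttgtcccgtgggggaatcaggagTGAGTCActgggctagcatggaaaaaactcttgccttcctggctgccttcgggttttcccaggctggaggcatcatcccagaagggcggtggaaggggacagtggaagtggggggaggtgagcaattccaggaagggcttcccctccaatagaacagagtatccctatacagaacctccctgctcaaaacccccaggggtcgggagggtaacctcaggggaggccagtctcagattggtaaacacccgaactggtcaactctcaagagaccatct
S100A2: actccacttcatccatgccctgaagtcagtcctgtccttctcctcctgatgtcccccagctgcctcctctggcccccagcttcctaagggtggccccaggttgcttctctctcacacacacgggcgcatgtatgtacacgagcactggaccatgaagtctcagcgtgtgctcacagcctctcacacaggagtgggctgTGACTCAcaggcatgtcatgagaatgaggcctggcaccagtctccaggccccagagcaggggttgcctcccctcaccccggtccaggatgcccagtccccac
In the S100A9 window TATAAA begins 29 bases before the start site. S100A8 has the same distance at the start shown, which was picked for its nearby TATAAA, and the window of its start at 153391188 holds none. The S100A3 window holds TGAGTCA and the S100A2 window TGACTCA, forms of the AP-1 core that begin 225 and 52 bases before the start. The window of the other S100A2 start, at 153563887, holds no TGANTCA. Over the 16 RefSeq windows of the 10 members, read on both strands, 5 held TATAAA, against 11.5% of all 35116 windows. Of these, 2 are overlapping S100A8 windows that hold the same site, so 4 sites are distinct. TGANTCA was in 2 windows, against 7.71% of all. The core of hypoxia response elements, ACGTG, was in 2 windows (S100A10 and S100A16; 21.4% of all windows). A form of the C/EBP site, TTGCNNAA, was in 1 window (S100A11; 10.5% of all), and a form of the NF-kB site, GGG and TTTCC with 2 free bases between them, in none (1.91% of all). These letters were chosen with the expression results known, and a match describes the sequence and not a bound site.

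Levels differed over a wide range between members. By FPKM, which scales counts by gene length and so allows genes to be compared, S100A6 (calcyclin, which binds the CACYBP protein) was the most abundant, with 1047 FPKM in C269S, 1094 FPKM in IDH1mt and 1031 FPKM in PCDH cells. S100A6 ranked 22, 22 and 21 among 19951 protein-coding genes in the same order of groups. S100A11, S100A10 and S100A16 followed with 530, 350 and 142 FPKM in PCDH cells. These 4 transcripts made up between 96.3% and 98.1% of the summed FPKM of the 21 S100 genes in every library. The other 6 members were low. In PCDH cells S100A3 had a mean of 17.6 FPKM, S100A13 had 9.0, S100A4 had 5.05, S100A2 had 4.0, S100A9 had 2.66 and S100A8 had 0.834. Neighbours in this order did not overlap in the PCDH libraries. In IDH1mt S100A9 moved ahead of S100A13, and S100A4 and S100A2 overlapped. In C269S S100A4 overlapped with both S100A9 and S100A2.

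**Figure D1:**
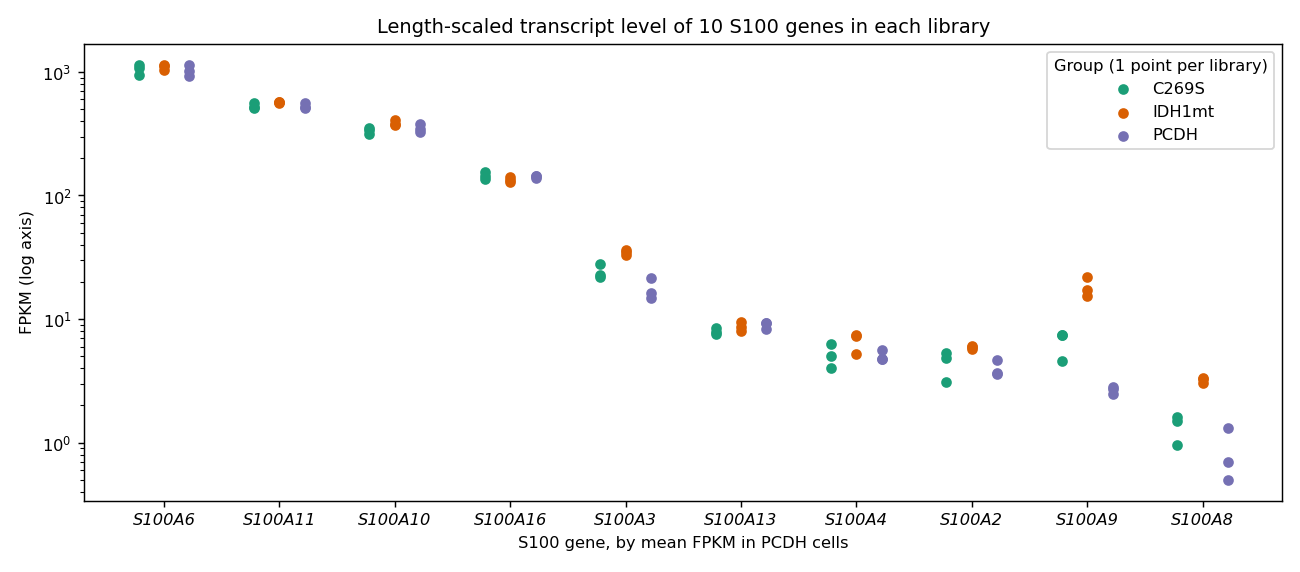
FPKM of the 10 members on a log axis, ordered by their mean in PCDH cells, with 1 point per library for C269S, IDH1mt and PCDH cells. S100A6, S100A11, S100A10 and S100A16 lie above 100 FPKM in all 9 libraries, and S100A9 moves most between groups.

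The comparison of IDH1mt with PCDH sets cells with the R132H construct against cells with the vector. S100A9, S100A8, S100A3 and S100A2 were higher in IDH1mt, no member was lower, and the 4 abundant members were not called. The call was an adjusted p under 0.05 in edgeR's quasi-likelihood test over 16874 genes, all 10 members among them. Of all genes tested, 14.1% were called in this comparison, 7.18% as higher and 6.9% as lower. The same 4 members were higher in every IDH1mt library than in any PCDH library, and the other 6 overlapped. Groups did not overlap for 29.2% of all genes, 14.3% higher and 14.9% lower in IDH1mt. The list was chosen with this contrast in view, so nothing is read from its share or from its median. The median log2 fold change of the members was 0.27, and that of all genes tested was -0.01.

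S100A9, the larger subunit of calprotectin, had 237, 215 and 236 counts in IDH1mt libraries, against 32, 34 and 37 counts in PCDH libraries. Scaled to library size with TMM factors (CPM), this was 9.97, 8.85 and 12.6 CPM in IDH1mt, against 1.57, 1.43 and 1.64 CPM in PCDH. Every IDH1mt library lay far above every PCDH library. In RNA from whole cultures, more cells with the transcript and more transcript per cell cannot be told apart. The rise was 6.73-fold (log2 fold change 2.75, SE 0.21, edgeR adjusted p = 3.7e-11), and by FPKM among protein-coding genes S100A9 ranked 2217 in IDH1mt cells, against 8445 in PCDH cells.

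S100A8, its partner in calprotectin, was scarcer, with 73, 81 and 63 counts in IDH1mt libraries, against 27, 12 and 16 counts in PCDH libraries. Its levels were 3.07, 3.33 and 3.38 CPM in IDH1mt and 1.33, 0.506 and 0.710 CPM in PCDH. The groups did not overlap, and the PCDH libraries differed among themselves by more than the IDH1mt libraries did. S100A8 rose 3.88-fold (log2 fold change 1.96, SE 0.33, edgeR adjusted p = 7.8e-05). With so few counts the size is loosely held, with a 95% interval of 1.28 to 2.63 on the log2 scale. With each library left out the log2 fold change ran between 1.68 (without PCDH replicate 2) and 2.41 (without PCDH replicate 1). By FPKM, S100A9 exceeded S100A8 in all 9 libraries, 2.83- to 7.80-fold in C269S, 4.63- to 6.53-fold in IDH1mt and 2.07- to 4.94-fold in PCDH.

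S100A3, a cysteine-rich member known for binding zinc and for its abundance in hair cuticle, had 31.6, 34.7 and 33.8 CPM in IDH1mt, against 15.8, 20.8 and 14.3 CPM in PCDH. The IDH1mt libraries formed a tight group above all PCDH libraries. The rise was 1.96-fold (log2 fold change 0.97, SE 0.12, edgeR adjusted p = 3.2e-07). S100A2, a mainly nuclear member known from epithelial cells, had 9.05, 9.51 and 9.43 CPM in IDH1mt, against 7.42, 5.82 and 5.72 CPM in PCDH. These groups did not overlap either, but they stood closer together. S100A2 rose 1.48-fold (log2 fold change 0.56, SE 0.17, edgeR adjusted p = 0.022). Leaving out PCDH replicate 2 or any 1 of the 3 IDH1mt libraries ended this call (adjusted p = 0.053 to 0.099), as did limma on FPKM values (adjusted p = 0.077 and 0.085 with 1 or 0.1 added before the log).

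The other members were not called in this comparison. S100A4, which binds non-muscle myosin and is known from metastatic cells, had 7.62, 7.57 and 5.41 CPM in IDH1mt, against 5.80, 4.93 and 4.92 CPM in PCDH (log2 fold change 0.41, SE 0.18, edgeR adjusted p = 0.15). IDH1mt replicate 3 lay among the PCDH libraries. S100A10, the annexin A2 partner that has lost calcium binding, had a log2 difference of 0.14 with a 95% interval of 0.02 to 0.26 (edgeR adjusted p = 0.11), and it was called without PCDH replicate 1 (adjusted p = 0.034). For S100A6, S100A11 (a partner of annexin A1), S100A13 (which takes part in the release of FGF1 and IL1A) and S100A16 the log2 differences lay between -0.09 and 0.09, and their 95% intervals between -0.26 and 0.23. Changes of the size seen for S100A3 lie outside those intervals. S100A13 shares 33.5% of its exon bases with S100A1 and a processed transcript, so its count is uncertain. For 8 of the 10 members, no exon base is shared with another annotated gene, and S100A6 shares 2.37%.

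**Figure D2:**
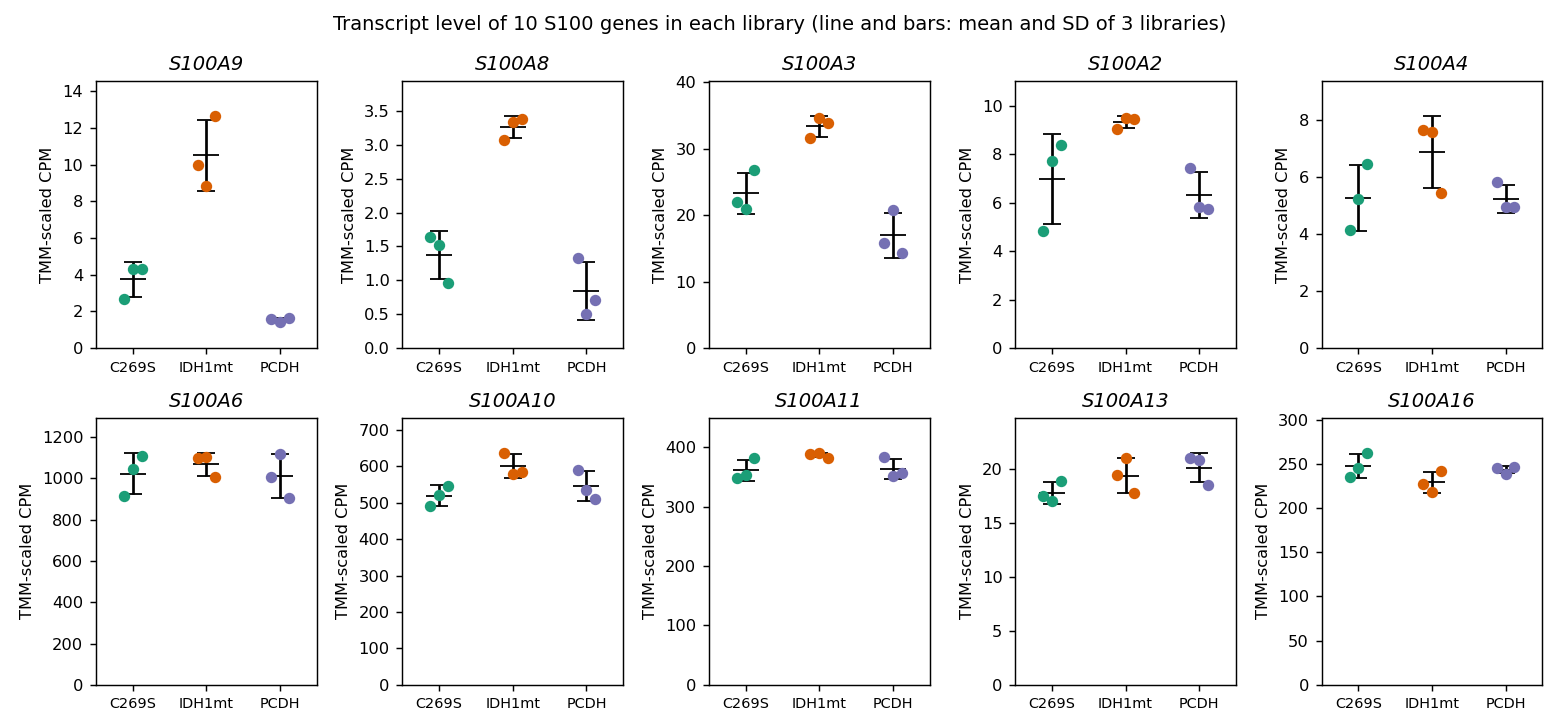
TMM-scaled CPM of each member in each library, with a linear axis from 0 in each panel. Points are libraries of C269S, IDH1mt and PCDH cells, and the line and bars are the mean and SD of 3 libraries. S100A9, S100A8, S100A3 and S100A2 are higher in all 3 IDH1mt libraries than in any PCDH library.

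The comparison of C269S with PCDH sets cells with the mutant construct that has its cysteine replaced against cells with the vector. S100A9 and S100A3 were higher in C269S and no member was lower. Of all genes, 1.42% were called here, 0.883% as higher and 0.533% as lower. Groups did not overlap for those 2 members, higher in C269S, and for 15.2% of all genes, 7.62% higher and 7.57% lower. S100A9 had 2.65, 4.31 and 4.32 CPM in C269S, against the 1.43 to 1.64 CPM of PCDH. All C269S libraries were above all PCDH libraries, and C269S replicate 1 was the lowest of its group. The rise was 2.43-fold (log2 fold change 1.28, SE 0.23, edgeR adjusted p = 0.0014). S100A3 had 22.1, 21.0 and 26.8 CPM in C269S, against 15.8, 20.8 and 14.3 CPM in PCDH (log2 fold change 0.45, SE 0.12, edgeR adjusted p = 0.044). The lowest C269S library and the highest PCDH library almost touched. This S100A3 call is weak, since it was lost in 7 of the 9 fits that left out 1 library (all but those without PCDH replicate 2 or C269S replicate 2; adjusted p = 0.057 to 0.20) and with the replicate number as a block (adjusted p = 0.075).

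S100A8 had 1.63, 1.52 and 0.965 CPM in C269S, against 1.33, 0.506 and 0.710 CPM in PCDH, and the groups overlapped. Its log2 difference of 0.71 had a 95% interval of -0.02 to 1.43 (edgeR adjusted p = 0.44), an interval that includes both no change and the 0.97 seen for S100A3 in IDH1mt. S100A2 had 4.85, 7.70 and 8.36 CPM in C269S, a wider range than in either other group (log2 difference 0.15, SE 0.17, edgeR adjusted p = 0.80). For S100A4, S100A6, S100A10, S100A11 and S100A16 the log2 differences lay between -0.07 and 0.02, and for S100A13 the value was -0.18 (SE 0.10). The median over members was 0.02, against -0.01 over all genes tested.

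C269S was set against IDH1mt directly, which tests the difference that the other comparisons, sharing the PCDH libraries, show side by side. S100A9, S100A8, S100A3 and S100A10 were lower in C269S and no member was higher. Of all genes, 4.9% were called here, 2.29% as higher and 2.61% as lower. S100A9 had 2.65 to 4.32 CPM in C269S, against 8.85 to 12.6 CPM in IDH1mt (log2 fold change -1.47, SE 0.19, edgeR adjusted p = 3.4e-06), so its level stood between those of IDH1mt and PCDH. S100A8 had 0.965 to 1.63 CPM in C269S, against 3.07 to 3.38 CPM in IDH1mt (log2 fold change -1.25, SE 0.32, edgeR adjusted p = 0.015). The S100A8 call was lost without IDH1mt replicate 2 or 3 or C269S replicate 3 (adjusted p = 0.059, 0.066 and 0.10). S100A3 had 21.0 to 26.8 CPM in C269S, against 31.6 to 34.7 CPM in IDH1mt (log2 fold change -0.52, SE 0.11, edgeR adjusted p = 0.0045). The S100A3 call was kept with each library left out (edgeR adjusted p at most 0.047) but was lost with limma on either FPKM scale.

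S100A10 differed by less. It had 490, 521 and 547 CPM in C269S, against 638, 580 and 584 CPM in IDH1mt. The groups did not overlap, and the PCDH libraries, at 591, 534 and 511 CPM, ran across both. The fall in C269S was small (log2 fold change -0.21, SE 0.06, edgeR adjusted p = 0.029) and was lost without IDH1mt replicate 1 or 3 or C269S replicate 1 or 2 (adjusted p = 0.070 to 0.24), with the replicate number as a block (adjusted p = 0.059), without TMM factors (adjusted p = 0.065) and with limma on FPKM values (adjusted p = 0.12 with either pseudocount). S100A2 (log2 difference -0.42, SE 0.17, edgeR adjusted p = 0.18) and S100A11 (-0.10, SE 0.05, edgeR adjusted p = 0.37) had non-overlapping groups but were not called. In all, 6 members were lower in every C269S library than in any IDH1mt library, as were 11.8% of all genes tested, and groups did not overlap in either direction for 23.6%. The median over members was -0.30 and over all genes 0.00, and nothing is read from it, as the members were chosen with the differences known.

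**Figure D3:**
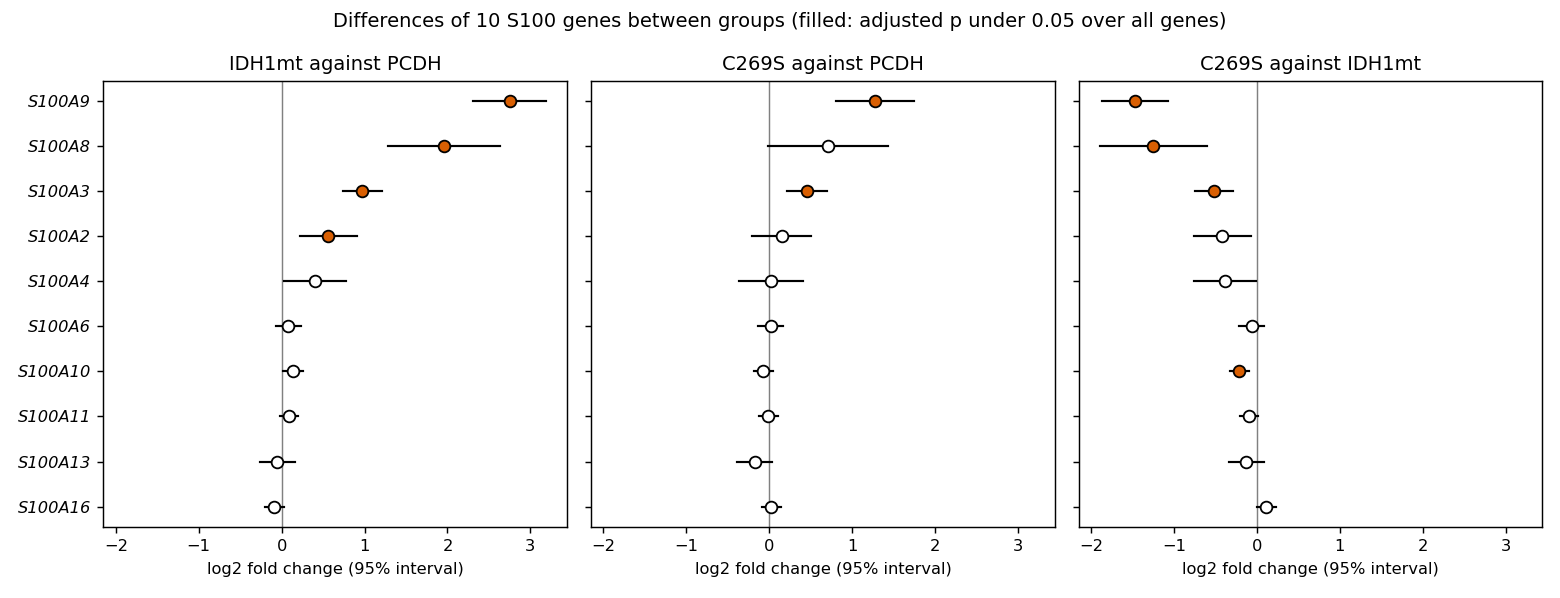
Log2 fold change of each member in the 3 comparisons, with its 95% interval as a line. Filled points have an adjusted p under 0.05 over all genes. S100A9 stands at 2.75 for IDH1mt against PCDH, 1.28 for C269S against PCDH and -1.47 for C269S against IDH1mt.

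The called members were not a run of neighbours. S100A8 and S100A9 lie at one end of the packed cluster and S100A3 and S100A2 further along. S100A6, which was not called against PCDH, lies between them, and S100A4, whose span holds S100A3, was not called either. Within 500 kb of the span of the members there were 77 other protein-coding genes. Of the 31 that could be tested, 2 were higher in IDH1mt than in PCDH (6.45%, against 7.18% of all genes), namely CGN and FLG, and 2 were lower, namely SLC39A1 and JTB. None of the 31 was called between C269S and PCDH or between C269S and IDH1mt. FLG, filaggrin, belongs to the epidermal differentiation complex, a block of skin genes, and lies between S100A11 and S100A9. Of 27 listed genes of that complex in the table, FLG among them and S100 genes apart, 10 had no count in any library and 6 could be tested. FLG was the only one called, in IDH1mt against PCDH, where it had a mean of 2.34 ± 1.05 CPM in IDH1mt and 0.888 ± 0.154 CPM in PCDH (SD, n = 3 each; log2 fold change 1.40, SE 0.37, edgeR adjusted p = 0.0088). The rest of the tested list, though not called, had log2 differences there from 0.54 (LCE3D) to 1.38 (SPRR2A). LCE3A, a tested neighbour outside this list, was at -0.06. The summed level of the list was 5.82 to 7.86 CPM in C269S, 8.25 to 11.4 CPM in IDH1mt and 4.97 to 6.44 CPM in PCDH.

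**Figure D4:**
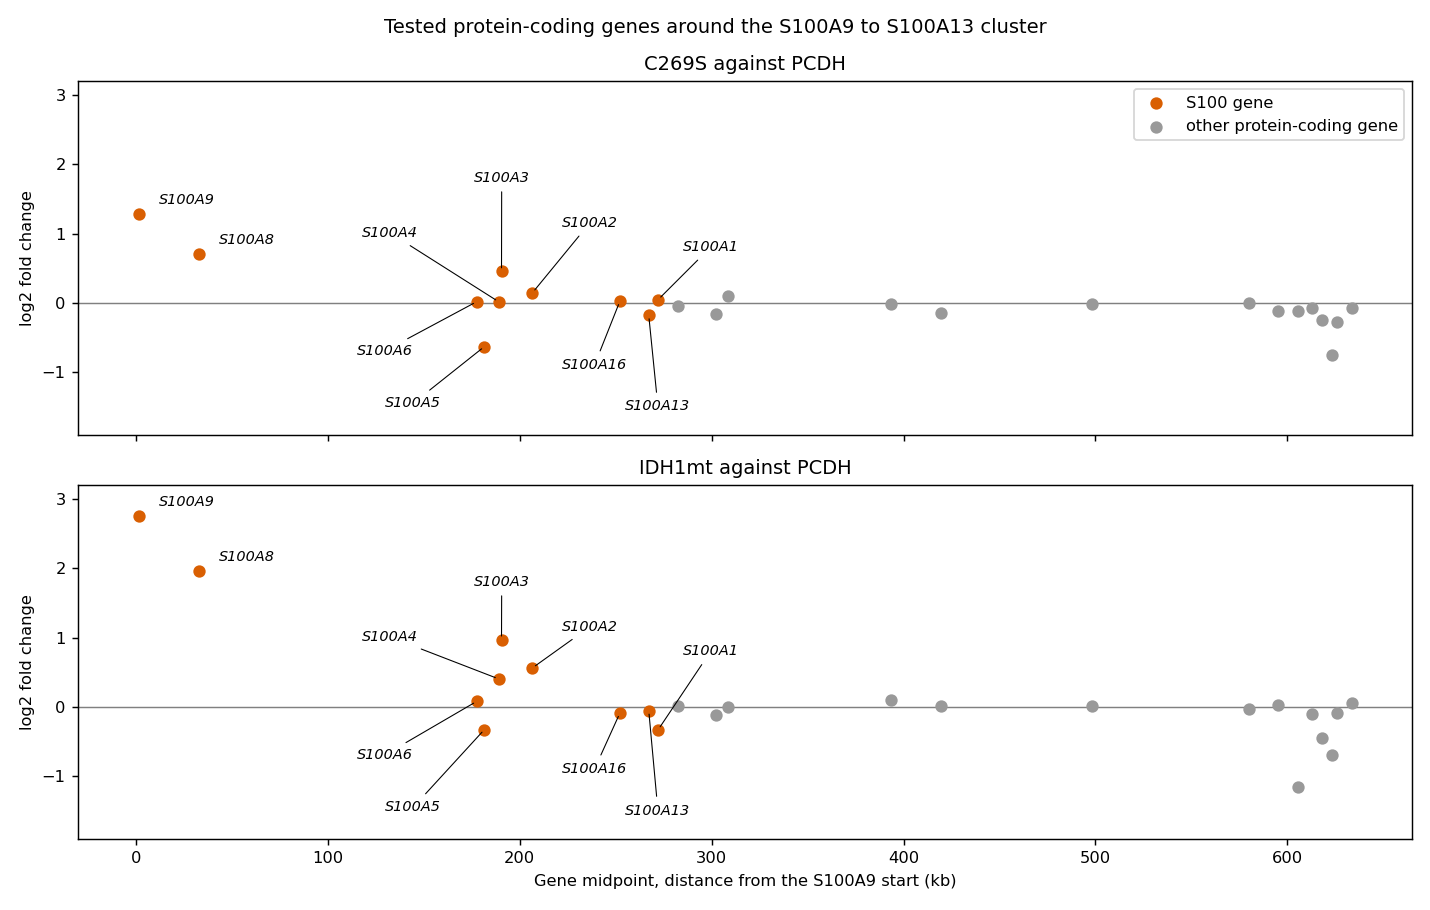
Log2 fold change of every tested protein-coding gene from S100A9 onward, by the distance of its midpoint from the start of S100A9 in kb, for C269S against PCDH (upper panel) and IDH1mt against PCDH (lower panel). S100A9 and S100A8 lie highest in both panels, and the genes beyond S100A13 scatter around and below 0.

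The remaining family members were scarce. Of the 11 other S100 genes only S100A1, S100A5 and S100Z passed the filter on low counts, and none was called in any comparison. S100A1 had 0.613 to 1.72 CPM over the 9 libraries, and S100Z and S100A5 had at most 1.19 and 0.548 CPM. S100B had 33 counts in all 9 libraries together and S100A12, which lies between S100A9 and S100A8, had 8. S100A7L2 had none.

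Of 7 genes for receptors of secreted S100 proteins, 5 could be tested. ALCAM, an adhesion molecule, was lower in IDH1mt (260 ± 11.8 CPM) than in PCDH (321 ± 50.3 CPM; n = 3 each; log2 fold change -0.30, edgeR adjusted p = 0.015), and none was called in the other comparisons. BSG, basigin, was the most abundant and differed little (log2 differences between -0.04 and 0.00). AGER, which encodes RAGE, had 2.80 ± 0.206 CPM in IDH1mt and 3.83 ± 0.129 CPM in PCDH (n = 3 each; log2 difference -0.45, edgeR adjusted p = 0.16). TLR4 had at most 0.276 CPM in any library and was not tested.

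Of 20 genes for intracellular partners, 19 could be tested. IL1A and PPFIBP1 were higher in IDH1mt than in PCDH and none was lower. IL1A, the cytokine whose release involves S100A13, had 141 ± 7.12 CPM in IDH1mt and 89.8 ± 9.55 CPM in PCDH (n = 3 each; log2 fold change 0.65, SE 0.07, edgeR adjusted p = 1.1e-07). PPFIBP1, the liprin that binds S100A4, had a log2 fold change of 0.26 (edgeR adjusted p = 0.0079). DLC1, a GTPase-activating protein that binds S100A10, was higher in C269S than in PCDH (log2 fold change 0.31, edgeR adjusted p = 0.016) and than in IDH1mt (0.26, edgeR adjusted p = 0.026), and IL1A was lower in C269S than in IDH1mt (-0.42, edgeR adjusted p = 0.00030). No other partner was called in any comparison, including ANXA2, CACYBP and MYH9.

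Of 13 annexins 11 could be tested. ANXA8 and ANXA8L1 were higher in IDH1mt than in PCDH (log2 fold changes 0.60 and 0.91, edgeR adjusted p = 1.7e-05 and 2.6e-07). ANXA8 was higher in C269S than in PCDH (0.38, edgeR adjusted p = 0.027), and ANXA8L1 was lower in C269S than in IDH1mt (-0.55, edgeR adjusted p = 0.0011). These genes are near-identical copies, so how reads divide between them is uncertain. By FPKM, S100A10 exceeded its partner ANXA2 2.20- to 2.36-fold in C269S, 2.31- to 2.47-fold in IDH1mt and 2.06- to 2.48-fold in PCDH.

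The S100A10 and annexin A2 complex is a surface receptor for plasminogen, and 7 of 8 genes of plasminogen activation could be tested. PLAU, the urokinase activator, and SERPINB2, an inhibitor of it, were lower in IDH1mt than in PCDH (log2 fold changes -0.22 and -0.21, edgeR adjusted p = 0.0032 and 0.032). SERPINB2 was higher in C269S than in IDH1mt (0.37, edgeR adjusted p = 0.00042). None was called between C269S and PCDH.

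Of 26 genes for other EF-hand proteins, 19 could be tested. CALB2 (calretinin) and HPCAL1 were higher and RCN3 (a reticulocalbin of the secretory pathway) was lower in IDH1mt than in PCDH, with log2 fold changes of 0.48, 0.17 and -0.51 (edgeR adjusted p = 0.0058, 0.032 and 0.00024). In C269S against IDH1mt, RCN3 was higher (0.33, edgeR adjusted p = 0.034), and no gene of the list was called between C269S and PCDH. The median over this list was -0.01 for IDH1mt against PCDH, as it was over all genes tested.

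Because S100A8 and S100A9 mark myeloid cells, 15 myeloid genes were set beside them. TYROBP and FCN1 had no count in any library, PTPRC (CD45) had at most 0.375 CPM and CSF3R at most 0.123 CPM. The summed level of the list was 11.6 to 16.9 CPM in C269S, 18.7 to 21.2 CPM in IDH1mt and 9.98 to 12.3 CPM in PCDH. Most of it was CSF1R, which was higher in IDH1mt than in PCDH (log2 fold change 0.88, edgeR adjusted p = 1.1e-05) and lower in C269S than in IDH1mt (-0.53, edgeR adjusted p = 0.012). FCER1G was also higher in IDH1mt than in PCDH (2.38, SE 0.53, edgeR adjusted p = 0.0019), but at means of only 1.43 and 0.271 CPM. None of the 5 tested was called between C269S and PCDH, and the part of such cells in the S100A8 and S100A9 levels was not tested. Of 12 keratinocyte and epithelial genes, 4 could be tested and none was called, and their summed level was 32.1 to 35.1 CPM in C269S, 33.4 to 37.3 CPM in IDH1mt and 32.1 to 47.3 CPM in PCDH.

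By the fixed rule, profiles were compared with that of S100A9, the member with the largest ratio of highest to lowest group mean. The genes most like it were ANGPTL4, CD24, SLC2A1, DDIT4L and MAGEC2. Likeness was the root mean square difference between log2 CPM profiles over the 9 libraries, each centred on its own mean, taken over 11599 protein-coding genes whose log2 CPM averaged 1 or more. It was 0.27 for ANGPTL4, an inhibitor of lipoprotein lipase, and 0.42 for CD24, a surface glycoprotein. ANGPTL4 had a mean of 20.3 ± 3.96 CPM in C269S, 70.4 ± 4.28 CPM in IDH1mt and 11.4 ± 1.56 CPM in PCDH (SD, n = 3 each). SLC2A1, the glucose transporter GLUT1, DDIT4L, an inhibitor of mTOR signalling, and MAGEC2, a cancer-testis gene, followed at 0.46, 0.48 and 0.48. This is a description of 9 libraries that fall into 3 groups.

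**Figure D5:**
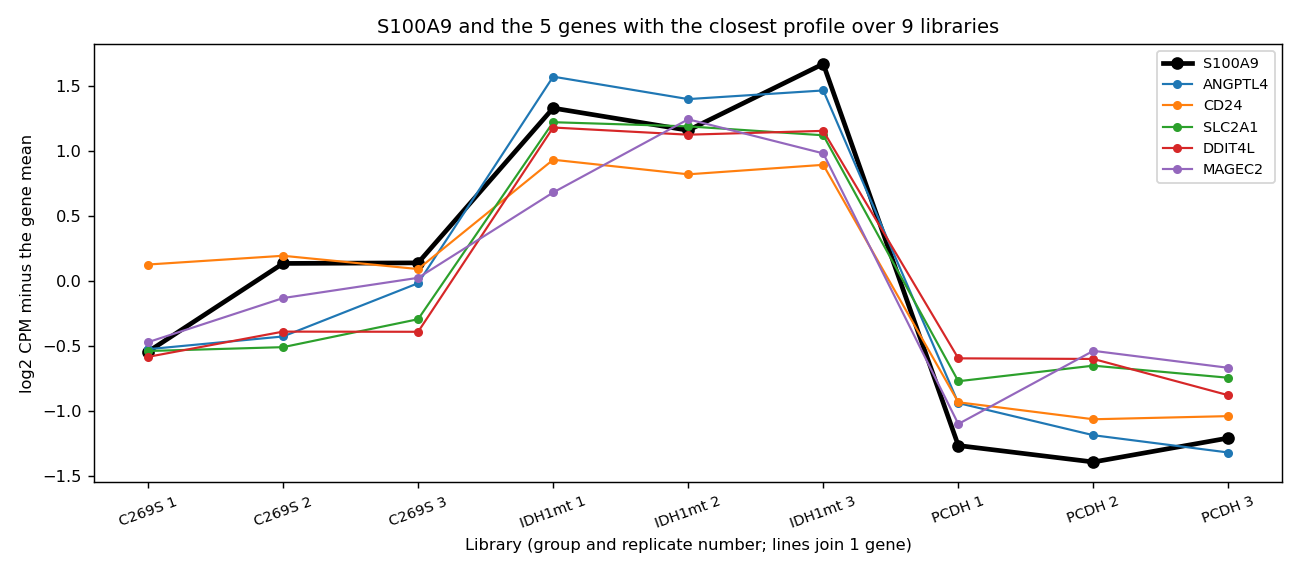
Log2 CPM of S100A9 (thick black line) and of the 5 genes nearest to it, each minus its own mean, in the 3 C269S, 3 IDH1mt and 3 PCDH libraries. All 6 genes are highest in the IDH1mt libraries.

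For the series as a whole, libraries held 19108925 to 24803711 counts, and the members took between 0.205% and 0.241% of them. The IDH1 transcript, a check of the labels, had 739 ± 30.3 CPM in C269S, 677 ± 16.5 CPM in IDH1mt and 111 ± 7.97 CPM in PCDH (SD, n = 3 each), which sets PCDH apart but does not tell C269S from IDH1mt. Glial markers were present in part. AQP4 had no count, SOX2 and S100B were at most 0.133 and 0.322 CPM, and GFAP was between 2.84 and 4.34 CPM. SLC1A3, a glutamate transporter of astrocytes, was between 40.1 and 46.6 CPM, OLIG2, a factor of the oligodendrocyte lineage, between 5.84 and 11.7 CPM, and NES, the intermediate filament of neural progenitors, was at 56.6 CPM or more. Of 9 glial markers 5 could be tested and none was called. Of the 6 abundant mesenchymal markers, IDH1mt had 3 above and 3 below PCDH, C269S had 2 above and 1 below PCDH, and C269S had 3 above and 1 below IDH1mt, by the same test. Of 6 endothelial markers, KDR alone was called, lower in IDH1mt than in PCDH and higher in C269S than in IDH1mt (log2 fold changes -0.79 and 0.52).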

How the data were processed

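Gene counts came from 9 bulk RNA sequencing libraries of U87 cells, 3 per group. The deposited counts are whole-number reads per gene, made with HISAT2 version 2.0.5 and featureCounts version 1.5.0-p3 on GRCh38, per the submitters' processing notes. For strand setting, library kit and read length, no statement is given in the sources used here. FPKM values that the authors also deposited, named so per the file headers, were used for levels between genes and in alternatives. The PCDH, IDH1mt and C269S libraries are the columns called Control, mt and CS, assigned by name. Gene lengths in the tables equal the exon lengths in GENCODE release 29 for all members.

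Genes were filtered with filterByExpr, scaled by TMM and tested with edgeR version 4.0.16 (R version 4.3.3; quasi-likelihood F test, robust) in 1 fit of 9 libraries by group, without covariates. P-values were adjusted by Benjamini and Hochberg over all 16874 genes tested. The SE was obtained by dividing the log2 fold change, without sign, by the root of F, and 95% intervals use the degrees of freedom of the fit. CPM are TMM-scaled over the tested genes. S100A8 rests on 12 to 81 counts per library.

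Members and lists were chosen with earlier results of these data known. All members are named; from each list, those called or with the lowest adjusted p were named, and other list genes given with levels were chosen after their values were seen. Some list genes are not reported here. Alternatives covered scaling, filters, samples in the fit, leaving out each library, a block for replicate number, DESeq2 version 1.42.0, and limma version 3.58.1 on log2 of FPKM plus 1 or plus 0.1. No pair of replicate libraries was identical, and all differed by more than sampling noise.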

Additional observations from a re-analysis of the deposited data

How the results depend on the processing

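The rises of S100A9, S100A8 and S100A3 in IDH1mt against PCDH and both calls of S100A9 in C269S were kept under every alternative and with each library left out. The count of members higher in C269S than in PCDH, 2 as reported, was 1 (S100A9) with library size alone, with the 6 libraries of the comparison alone, with the replicate block and with limma on FPKM plus 1 or plus 0.1, and 1 to 2 with each library left out. The count lower in C269S than in IDH1mt, 4 as reported, was 2 (S100A9 and S100A8) with limma on FPKM plus 1, 1 (S100A9) with FPKM plus 0.1, 3 (without S100A10) with library size alone and with the replicate block, and 2 to 4 with each library left out. The count higher in IDH1mt than in PCDH, 4 as reported, was 3 with limma on either FPKM scale, where S100A2 was lost, and 3 to 5 with each library left out. The cause was not tested.

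Signs turned only for members close to 0. In C269S against PCDH, S100A4 was at -0.0024 and S100A6 at -0.0021 with library size alone, and S100A4 at -0.0026 with FPKM plus 0.1. With each library left out, the ranges there were -0.0012 to 0.35 for S100A2, -0.15 to 0.16 for S100A4, -0.055 to 0.098 for S100A6, -0.046 to 0.028 for S100A11 and -0.015 to 0.061 for S100A16. For S100A13 in IDH1mt against PCDH the range was -0.11 to 0.0046, and for S100A6 in C269S against IDH1mt -0.13 to 0.012. DESeq2 gave no adjusted p for S100A8 in C269S against PCDH.

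The labels do not say whether same-numbered libraries shared more than a number. The correlations of their deviations from the group means lay between -0.087 and 0.056, and not every library correlated best with its own number. Such deviations hold count noise and sum to 0 within a group, so they cannot decide this. A shared culture or preparation was not tested. With the replicate block, 1 member was higher in C269S than in PCDH. The S100A3 call there and the S100A10 call in C269S against IDH1mt were lost. Depth limits S100A8 most.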
